A study of Mus musculus with 16 samples.

Results

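The miR-297, miR-466, miR-467 and miR-669 families are mouse miRNAs that mostly come from tandem hairpins in an intron of Sfmbt2, a Polycomb-group gene. Members were taken by name from the deposited count table, as every mature miRNA named miR-297, miR-466, miR-467 or miR-669 with any letter, number or arm after it. This gave 61 of 1167 mature miRNAs, of which 28 are named as 5p arms, 27 as 3p arms and 6 without an arm. The cells were 3T9 fibroblasts, an immortalised line grown from mouse embryos. All groups were the same cells, kept quiescent for 72 h by withholding serum and then given complete medium with 10% fetal bovine serum, and they differed only in the time after serum. Libraries of small RNA were made at 0 (quiescent cells), 1, 2, 4, 6, 8, 10 and 12 h, with 2 libraries at each time from independent experiments, and a further time named by the design text was not analysed here. The question addressed is how these miRNAs move when quiescent fibroblasts are given serum back.

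A miRNA hairpin is cut by Drosha and then Dicer into a short duplex, and its strands are called the 5p and 3p arms. Usually 1 arm is loaded into Argonaute and kept while the other is degraded, so both arms of a hairpin share their synthesis but can differ in stability. Sfmbt2 is imprinted and paternally expressed in extraembryonic tissue, and its intronic cluster is known from mouse placenta and stem cells. Its hairpins are near copies of each other that multiplied in rodents, and many members carry runs of UG or CA repeats. Bases 2 to 8 of a mature miRNA form the seed that pairs with target messages.

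In the GENCODE M21 annotation of GRCm38, 81 hairpins carry these family names, and 71 of them lie within Sfmbt2 (chromosome 2, 10370510 to 10595253, plus strand). All 71 are on the host's strand in a single intron (10461473 to 10523944, intron 10 of Sfmbt2-201), and they span 51.6 kb from 10466663 to 10518279. The intron holds 29 hairpins of miR-669, 23 of miR-466, 14 of miR-467 and 5 of miR-297. Of the 61 members, 52 come only from this intron, 5 only from elsewhere in the genome and 4 from both. Some names stand for many hairpins: miR-669a for 12, miR-467a for 10 and miR-466b for 8. Of the 12, Mir669a-3 also has a 3p entry of its own, miR-669a-3-3p (89 reads), which the miR-669a arm ratio below leaves out. Reads of such names cannot be assigned to 1 copy, and how reads that match several members were counted is not given in the sources used here, so values of single members are uncertain in that respect.

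Mature sequences from RefSeq (GRCm38.p6) matched 4 of the 61 members, and all 4 come from hairpins outside the Sfmbt2 intron. They are shown, with the seed in capitals, as the only members with a sequence in the sources used here. They do not stand for the members within the intron.
miR-466i-3p: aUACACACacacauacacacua
miR-466k: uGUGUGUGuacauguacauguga
miR-466j: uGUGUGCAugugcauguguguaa
miR-466q: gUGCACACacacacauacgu
They lie on the plus strand at chr13:17747552-17747573, chr3:85467396-85467418, chr10:60960802-60960824 and chr3:28419988-28420007. The hexamer UGUGUG was in miR-466k and miR-466j, and ACACAC was in miR-466i-3p and miR-466q. Over the 1679 mature mouse sequences searched as written, UGUGUG occurred in 1.668% and ACACAC in 0.655%. The 4 seeds differ from each other, and no miRNA outside the families shared 1 of them among the sequences searched. That set holds only 4 of the 61 members, so these shares and the lack of seed sharers apply to that set alone. These 4 members were rare, with 91 reads of miR-466i-3p, 39 of miR-466k, 6 of miR-466j and 1 of miR-466q over all 16 libraries, and none of them was abundant enough to be tested.

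Libraries held 5852087 to 7783249 miRNA reads, so that a miRNA with no read could still be at 0.385 to 0.513 CPM (counts scaled to library size; 3 counts of the total, counting error only). Among miRNAs that mark cell types, the fibroblast list (miR-199a, miR-214, miR-143, miR-145a, miR-21a, miR-22 and miR-31, 14 mature forms) summed to 333800 to 441500 CPM. The 7 epithelial forms summed to 0.885 to 2.42 CPM, the 10 pluripotent forms to 0.151 to 1.22 and the 4 muscle forms to 0.979 to 2.98. Blood forms (8) summed to 87.7 to 177.4 CPM, neural forms (5) to 10.2 to 22.5, and liver and gut forms (6, miR-122, miR-192 and miR-194) to 643 to 877.9. The fibroblast sum was 348700 and 352700 CPM at 0 h and 429800 and 440700 at 12 h, and its part in the results below was not tested. The header names 2 sequencing runs, each holding every library of 1 replicate number, so run and experiment cannot be told apart.

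Together the members took a small share of the libraries, which was lower after serum than before it. Pooled over all 61, their mean level was 645 ± 47.6 CPM at 0 h (SD over 2 libraries, as for the values that follow), 607 ± 63.6 at 1 h, 529 ± 7.13 at 2 h, 500.7 ± 21.7 at 4 h, 504 ± 52.1 at 6 h, 507 ± 17.3 at 8 h, 492 ± 23.3 at 10 h and 483 ± 26.8 at 12 h. Both 0 h libraries (611 and 678 CPM) lay above every library from 2 h on (464 to 541). The lower level was thus reached between 1 and 4 h, and later means stayed within 483 to 507 CPM. The log2 ratio of the 12 h to the 0 h mean was -0.42, and it was -0.28 in replicate 1 and -0.55 in replicate 2. With unscaled library totals it was -0.58, since that choice moves the median of all tested miRNAs to -0.15. In reads, members took 0.0678% ± 0.00508 of a library at 0 h and 0.0455% ± 0.00205 at 12 h (SD, n = 2). A pooled level of chosen members was given no test. In bulk RNA, fewer cells making a miRNA and less of it per cell cannot be told apart.

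**Figure D1:**
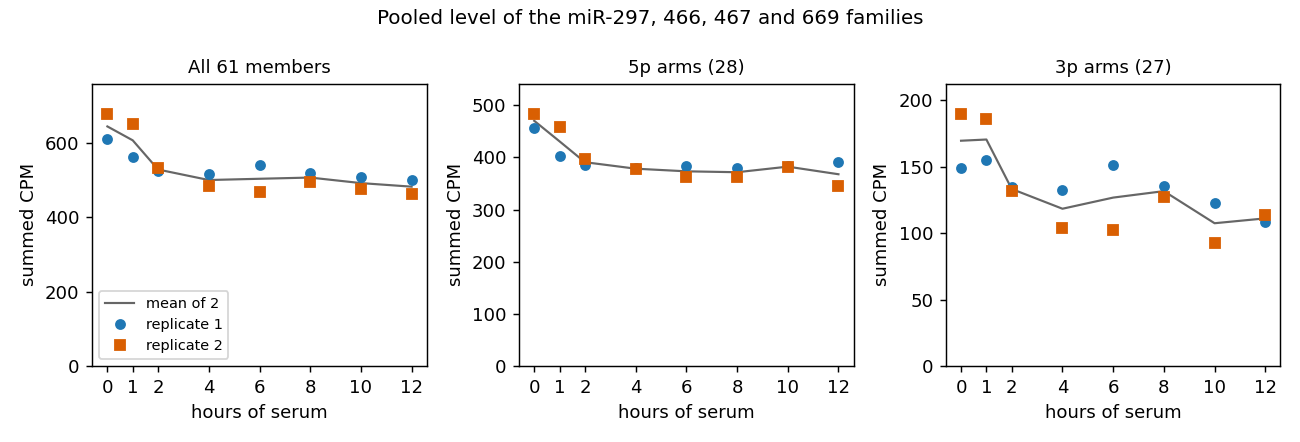
Summed CPM (y axes, from 0) of all 61 members, of their 28 5p arms and of their 27 3p arms against hours of serum. Points are single libraries, marked by replicate, and the line joins the means of 2. All members stand at 611 and 678 CPM at 0 h and at 464 to 541 from 2 h on.

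The families contributed unequally. The miR-669 family held 45.3% of the members' reads and the miR-467 family 39.6%, against 13.7% for miR-466 and 1.36% for miR-297. The miR-467 family stood at 266 ± 10.9 CPM at 0 h and 186 ± 18.6 at 12 h (SD, n = 2), and the miR-669 family at 282 ± 10.3 and 228 ± 12.0. The miR-466 family stood at 89.2 ± 24.1 CPM at 0 h, with 72.2 and 106 CPM in the replicates, and at 62.7 ± 4.95 at 12 h. The miR-297 family, at 7.54 ± 2.35 and 6.26 ± 1.08 CPM, overlapped between the 2 times. Members from hairpins outside the intron were near the detection limit, at 1.72 ± 0.0570 CPM at 0 h and 0.928 ± 0.467 at 12 h for all 5 together.

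Reads were concentrated on few members. The 6 with the most reads (miR-467a-5p, miR-669a-5p, miR-669c-5p, miR-467d-5p, miR-669a-3p and miR-467c-5p) held 65.9% of the 58410 reads. A mean of at least 10 CPM was reached by 14 members, and 31 had a mean under 1 CPM. The filter on low counts left 33 members for testing and 28 untested, and the untested ones held 1.48% of the members' reads. The most abundant untested ones were miR-466i-3p (91 reads), miR-669a-3-3p (89), miR-466a-5p (81), miR-466f (81) and miR-466d-5p (72). Every member had at least 1 read in some library, and 8 had at most 10 reads in all.

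Across the 8 times, 4 of the 33 tested members changed (miR-467a-5p, miR-467d-3p, miR-466h-3p and miR-297a-3p), beside 13.8% of all 449 tested miRNAs (edgeR quasi-likelihood F-test, Benjamini-Hochberg adjusted p under 0.05 over all 449). With the replicate number as a block 7 changed, beside 24.5% of all miRNAs in that fit. These 4 were among them, and miR-467d-5p, miR-467e-5p and miR-669e-5p were added. Of the 4 calls without the block, that of miR-467d-3p was lost without 0 h replicate 2 (adjusted p = 0.0681) and that of miR-297a-3p with the DESeq2 test (0.0977), with reference and trimmed classes (0.293) and without 1 h replicate 2 (0.107). Those of miR-466h-3p and miR-467a-5p were lost in 6 and 11 alternatives. Both were lost with templated classes (0.0973 and 0.0556) and without 10 h replicate 1, 0 h replicate 2, 1 h replicate 2 or either 12 h library. That of miR-467a-5p was also lost with reference and trimmed classes (0.0581) and without 0 h replicate 1, 10 h replicate 2 or either 8 h library, and the ranges over the alternatives were 3.97e-06 to 0.0681 for miR-467d-3p, 0.00388 to 0.293 for miR-297a-3p, 0.00192 to 0.101 for miR-466h-3p and 0.000523 to 0.15 for miR-467a-5p. At 12 h against 0 h, 4 members fell (miR-467a-5p, miR-467d-3p, miR-466h-3p and miR-467e-5p), beside 6.01% of all miRNAs that fell, and 7 fell with the replicate block, which added miR-297a-3p, miR-467e-3p and miR-669f-3p, beside 12.2% of all miRNAs in that fit. None rose at 12 h by edgeR, DESeq2 or limma-voom (0 at an unadjusted p under 0.05), beside 8.24% of all miRNAs that rose. Over the linear trend, the slope of log2 level against hours, 12 members fell, beside 13.1% of all miRNAs, and 1 rose, beside 12.0%. The log2 change at 12 h was below 0 in 27 of 33 members (median -0.36). Among the 416 other tested miRNAs it was below 0 in 47.4% (median 0.03). In both replicates 19 members were lower and 2 higher at 12 h (with 0.5 CPM added), which was not counted for other miRNAs. The 0 h and 12 h values did not overlap for 17 of the 33 members, beside 275 of all 449 tested miRNAs.

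The 2 members with the lowest adjusted p over the trend, miR-467d-3p and miR-467a-5p, were of the miR-467 family. miR-467d-3p stood at 30.9, 26.9, 26.8, 18.4, 20.9, 17.6, 17.8 and 13.3 CPM at 0, 1, 2, 4, 6, 8, 10 and 12 h in replicate 1. In replicate 2 it stood at 37.6, 37.6, 17.4, 18.1, 15.3, 18.1, 12.9 and 15.9 CPM. Every library from 4 h on was below both 0 h libraries, and replicate 2 was already low at 2 h. At 12 h miR-467d-3p fell by a log2 value of 1.23 (SE 0.26; edgeR adjusted p = 0.0044), and it was also called below 0 h at 4, 6, 8 and 10 h (adjusted p = 0.0424, 0.0425, 0.0329 and 0.00919). Its trend was -0.098 per hour (SE 0.016; edgeR adjusted p = 0.000202), and that call held under every alternative tried, each replicate alone included (adjusted p of 2e-07 to 0.0346). The 12 h call was lost without 12 h replicate 1 (adjusted p = 0.0511; range over the alternatives 7.27e-06 to 0.0511).

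miR-467a-5p, the member with the most reads, stood at 95.5, 80.5, 63.4, 63.3, 68.8, 67.5, 61.2 and 57.4 CPM over the same times in replicate 1. In replicate 2 the values were 114.1, 102.5, 80.2, 75.7, 75.3, 61.03, 67.3 and 52.7 CPM. All libraries from 2 h on lay below both 0 h libraries. At 12 h it fell by a log2 value of 0.93 (SE 0.19; edgeR adjusted p = 0.00365), with calls at 8 and 10 h as well (adjusted p = 0.028 and 0.0205). Its trend was -0.062 per hour (SE 0.011; edgeR adjusted p = 0.00056), and this call too held under every alternative (adjusted p of 4.45e-06 to 0.0395). Without 12 h replicate 2 the 12 h call was lost (adjusted p = 0.0569; range 7.24e-05 to 0.0569). Its other arm, miR-467a-3p, was rare, with 9 and 12 reads at 0 h and 2 and 4 at 12 h. It fell over the trend by 0.15 per hour (SE 0.034, edgeR adjusted p = 0.0035), a call lost in each replicate alone. With a minimum count of 50, with reference and trimmed classes or with the reference class alone it was not tested.

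miR-467d-5p went the other way from the 3p arm counted under the same hairpin name. It stood at 50.2, 35.6, 47.9, 55.3, 51.6, 54.0, 58.4 and 61.3 CPM in replicate 1 and at 44.7, 36.0, 38.3, 48.0, 52.1, 54.9, 63.3 and 48.7 CPM in replicate 2. Both 1 h libraries were the lowest of their replicates, and the 0 h and 12 h values overlapped. It was the 1 member that rose over the trend, by 0.042 per hour (SE 0.011; edgeR adjusted p = 0.0119), while its 12 h change of 0.21 ± 0.17 (SE) was not called (adjusted p = 0.475). The rise missed the threshold with unscaled library totals (slope 0.029, adjusted p = 0.0672), in either replicate alone (adjusted p = 0.0543 and 0.0792) and with reads equal to the reference alone (slope 0.014, adjusted p = 0.524, the highest of a range from 0.00292), always with the same sign.

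The remaining miR-467 members differed among themselves. miR-467e-5p stood at 24.8 and 20.4 CPM before serum and at 15.7 and 12.3 after 12 h. It fell at 12 h by a log2 value of 0.69 (SE 0.21, edgeR adjusted p = 0.044, or 0.0026 with the replicate block). That 12 h call was lost in 15 of its alternatives, among them the fits without any single library of 0 h, 1 h or 12 h (adjusted p range 0.0026 to 0.316). Its trend of -0.045 per hour (SE 0.013; edgeR adjusted p = 0.0149) was lost in each replicate alone, over 1 to 12 h and without 0 h replicate 1. miR-467c-5p, at 45.9 and 42.8 CPM at 0 h and 43.5 and 35.9 at 12 h, differed between these times by a log2 value of -0.16 ± 0.17 (SE; adjusted p = 0.608). miR-467b-5p, at 7.69 and 9.20 CPM at 0 h and 5.98 and 6.13 at 12 h, had -0.48 ± 0.26 (adjusted p = 0.262). miR-467e-3p was rare, with 10 and 18 reads at 0 h and 3 and 4 at 12 h. Its 12 h change was -1.81 ± 0.61 (SE; edgeR adjusted p = 0.0628, or 0.037 with the replicate block).

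**Figure D2:**
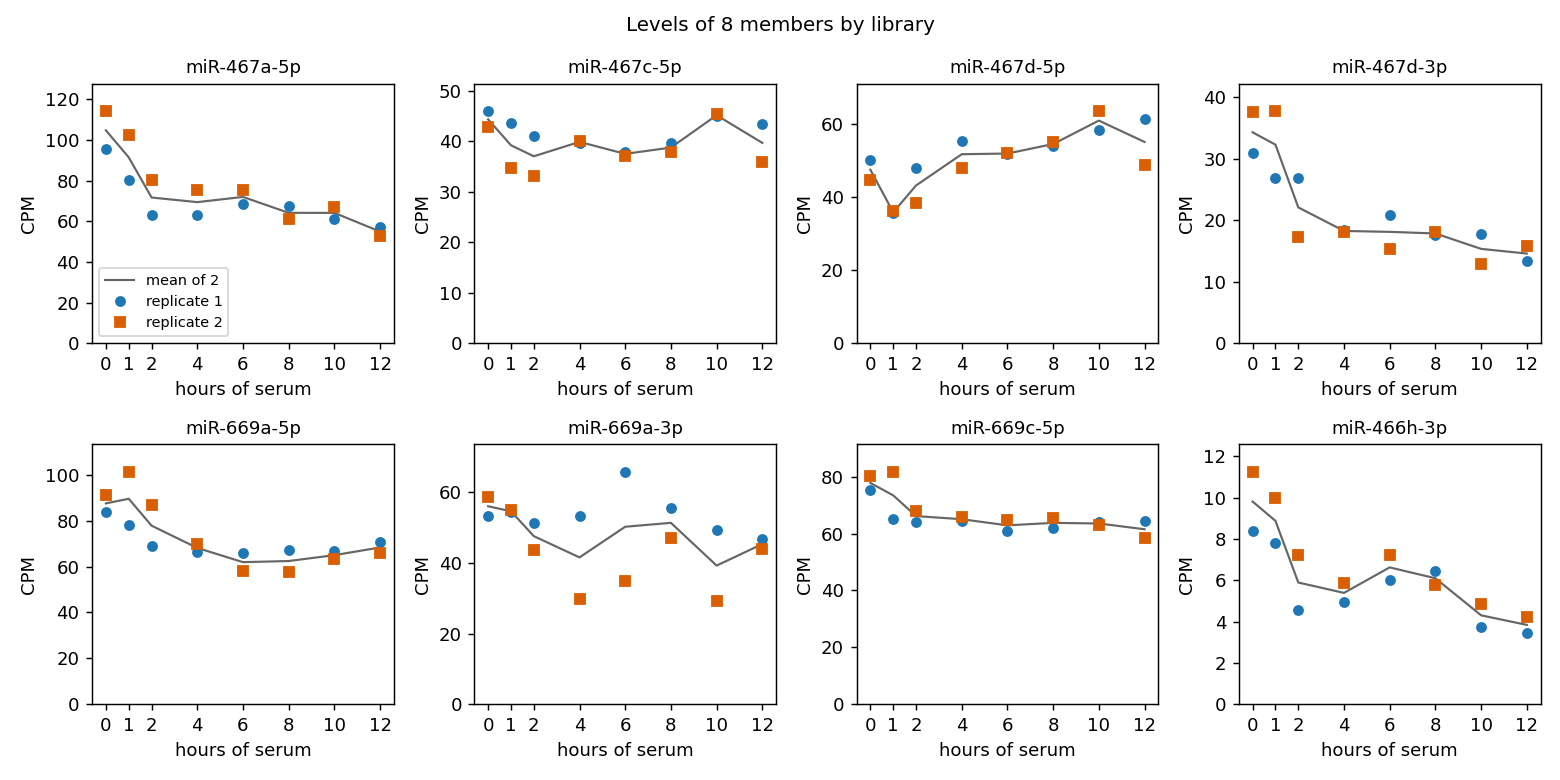
CPM (y axes, from 0) of 8 members against hours of serum, with 1 point per library and a line through the means of 2. miR-467a-5p and miR-467d-3p lie lower from 4 h on than at 0 h in both replicates, and miR-467d-5p has its lowest points at 1 h (35.6 and 36.0 CPM).

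In the miR-669 family, the 2 most abundant members fell slightly over the trend. miR-669a-5p, named for 12 hairpins, stood at 83.7 and 91.3 CPM before serum and at 70.6 and 66.0 after 12 h. Its 1 h libraries differed (77.9 and 101.1 CPM), and its lowest library was 8 h replicate 2 (57.5). It fell over the trend by 0.037 per hour (SE 0.011; edgeR adjusted p = 0.0161), a call lost in each replicate alone and over 1 to 12 h, and its 12 h change was -0.36 ± 0.18 (SE; adjusted p = 0.209). With reads equal to the reference alone the slope was -0.068 (adjusted p = 0.000973) and the 12 h change -0.80 was called (adjusted p = 0.0197, the lowest of a range to 0.707). miR-669c-5p stood at 75.3 and 80.4 CPM before serum and at 64.6 and 58.5 after 12 h. Its trend of -0.023 per hour (SE 0.0082; edgeR adjusted p = 0.0461) was the weakest call, lost in 18 of its alternatives (adjusted p range 0.00388 to 0.487), among them the fits without any single library of 0, 6, 8 or 10 h.

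Of the other miR-669 members, the abundant miR-669a-3p differed between the replicates at several times. At 4, 6 and 10 h it stood at 53.3, 65.7 and 49.2 CPM in replicate 1 and at 29.8, 34.8 and 29.2 in replicate 2. It was not called (12 h change -0.31 ± 0.31 SE, adjusted p = 0.595). miR-669o-5p stood at 15.5 and 10.4 CPM at 0 h and 9.12 and 10.8 at 12 h, so the times overlapped. It fell over the trend by 0.053 per hour (SE 0.016; edgeR adjusted p = 0.0172), a call lost in each replicate alone and without a low-count filter. Both arms of miR-669e fell over the trend from low levels. Neither was tested with a minimum count of 50, with reference and trimmed classes or with the reference class alone. miR-669e-3p was also not tested with templated classes. miR-669e-5p had 20 and 31 reads at 0 h and 9 and 17 at 12 h (slope -0.091 ± 0.030 SE, edgeR adjusted p = 0.0273, range over the alternatives 0.012 to 0.237). miR-669e-3p had 7 and 12 reads at 0 h, 6 and 4 at 12 h and none in 10 h replicate 2, which allows up to 0.448 CPM (slope -0.15 ± 0.046 SE, edgeR adjusted p = 0.0242, range 0.0109 to 0.297). Both calls were lost in each replicate alone, over 1 to 12 h and without a low-count filter. The miR-669e-5p call was also lost without any 1 of 1 h, 10 h or 12 h replicate 1 or 0 h, 1 h or 10 h replicate 2. The miR-669e-3p call was also lost without 0 h or 1 h replicate 2. miR-669b-5p, at 15.4 and 13.9 CPM at 0 h and 16.1 and 12.3 at 12 h, differed between these times by a log2 value of -0.04 ± 0.22 (SE; adjusted p = 0.909), and that sign changed under 4 alternatives. miR-669f-3p had 32 and 34 reads at 0 h and 19 and 13 at 12 h. Its 12 h change was -0.89 ± 0.36 (SE; edgeR adjusted p = 0.135, or 0.0303 with the replicate block).

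In the miR-466 family, miR-466h-3p changed most. The miR-466h hairpin is known for its induction by glucose shortage in cultured cells. miR-466h-3p stood at 8.39 and 11.2 CPM at 0 h, 4.54 and 7.25 at 2 h, 6.43 and 5.76 at 8 h, then 3.44 and 4.25 at 12 h. All libraries from 2 h on lay below both 0 h libraries. It fell at 12 h by a log2 value of 1.35 (SE 0.28, edgeR adjusted p = 0.00437) and at 10 h by 1.18 (SE 0.28, adjusted p = 0.0111). Its trend was -0.093 per hour (SE 0.019, edgeR adjusted p = 0.00129), a call lost in replicate 1 alone. With reference and trimmed classes or the reference class alone it did not pass the low-count filter and was not tested. The 12 h call was lost without 12 h replicate 1 or 0 h replicate 2 (adjusted p range over the alternatives 0.000339 to 0.0543). miR-466a-3p, at 10.9 and 17.1 CPM at 0 h and 9.12 and 9.43 at 12 h, fell over the trend by 0.051 per hour (SE 0.016; edgeR adjusted p = 0.0235), a call lost in 7 alternatives, among them the fits without 0 h or 1 h replicate 2. miR-466b-3p, the most abundant of the family, stood at 19.2 and 28.6 CPM at 0 h and 15.7 and 18.4 at 12 h and was not called (-0.49 ± 0.21 SE, adjusted p = 0.164).

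The miR-297 family had 1 called member. miR-297a-3p stood at 2.52 and 3.38 CPM at 0 h, 3.76 and 4.69 at 1 h, 1.64 and 1.82 at 4 h, then 1.49 and 1.42 at 12 h. Every library from 4 h on lay below those of 0 h. It fell over the trend by 0.12 per hour (SE 0.024; edgeR adjusted p = 0.0014), a call lost in replicate 1 alone, and at 12 h its change of -1.01 ± 0.34 (SE) had an adjusted p of 0.0628 (0.037 with the replicate block, the lowest of a range to 0.355). With a minimum count of 50 or with the reference class alone miR-297a-3p was not tested. The other arm, miR-297a-5p, stood at 1.82 and 3.25 CPM at 0 h and 2.84 and 2.67 at 12 h (0.12 ± 0.42, adjusted p = 0.883).

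Sorted by arm, the 3p members had the lower slopes. Over the trend all 12 tested 3p members had slopes below 0 (median -0.072 per hour), as did 14 of 20 tested 5p members (median -0.020), a difference that was not itself tested. Among other tested miRNAs, 47.7% of 218 3p forms and 50.8% of 177 5p forms had slopes below 0 (medians 0.003 and -0.001). Pooled, 3p arms stood at 149 and 189.7 CPM at 0 h and 109 and 114 at 12 h, and 5p arms at 457 and 483 at 0 h and 390.5 and 345 at 12 h. The 5p share of arm reads was 73.6% ± 2.51 at 0 h and 76.7% ± 2.12 at 12 h (SD, n = 2), within the spread of the replicates (75.4% and 71.8% at 0 h, 78.2% and 75.2% at 12 h). The miR-467 3p arms stood apart in level, at 37.9 ± 5.92 CPM at 0 h and 16.2 ± 1.34 at 12 h, and most of that sum was miR-467d-3p.

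**Figure D3:**
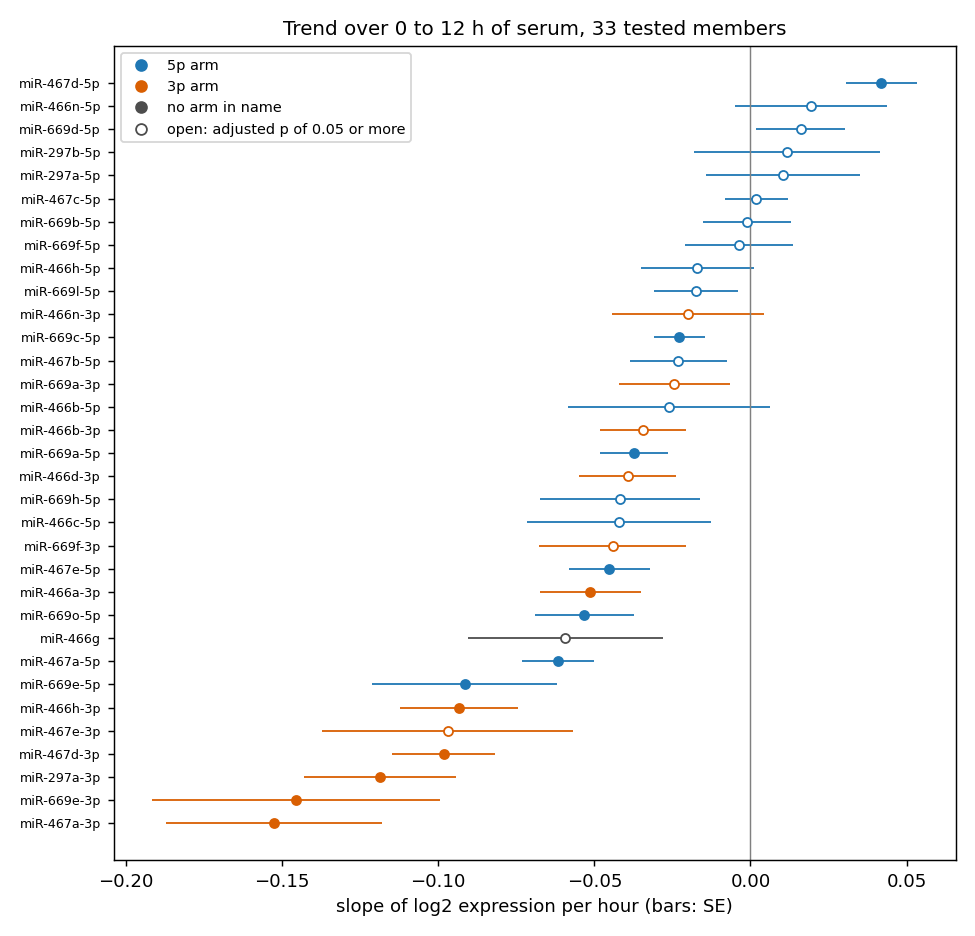
Slope of log2 expression per hour (x axis) with its SE for each of the 33 tested members, sorted, with 5p arms in blue, 3p arms in orange and filled points for an adjusted p under 0.05. All 12 3p arms lie left of 0, and miR-467d-5p is the 1 filled point right of it.

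The ratio of 3p to 5p reads of a hairpin does not depend on library scaling, because both counts come from the same library. The trend of its log2 value was tested with limma for the 169 hairpin names with at least 20 reads on each arm, a test added after the data had been seen. The ratio fell for 2 of 15 member hairpins, miR-467d and miR-297a, beside 7.69% of all 169. With the replicate block it fell for 3, miR-466h added, beside 9.47% of all in that fit. Over all classes it rose for none (0 by limma, 0 at an unadjusted p under 0.05), beside 6.51% of all. Slopes were below 0 for 13 of the 15 members, with a median of -0.046 per hour, and for 53.3% of all 169.

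For miR-467d the 3p arm held 38.1% and 45.7% of the hairpin's reads at 0 h, 43.0% and 51.1% at 1 h, 35.9% and 31.2% at 2 h, 25.0% and 27.4% at 4 h, then 17.8% and 24.6% at 12 h. From 4 h on every library (16.9% to 28.9%) lay below every library of 0 to 2 h (31.2% to 51.1%). The mean was 41.9% ± 5.39 at 0 h and 21.2% ± 4.76 at 12 h (SD, n = 2). The log2 ratio fell by 0.137 per hour (SE 0.021; limma adjusted p = 8.82e-05) and passed the threshold in each replicate alone (adjusted p = 0.00269 and 0.0319), with reads equal to the reference alone (slope -0.0997, adjusted p = 0.00407) and without any 1 library (adjusted p range over all alternatives 4.31e-05 to 0.0319). miR-297a-3p held 58.1% and 51.0% of its hairpin's reads at 0 h and 34.5% and 34.6% at 12 h, from 18 and 25 3p reads at 0 h and 10 and 9 at 12 h. Its ratio fell by 0.116 per hour (SE 0.034; limma adjusted p = 0.0235), a call lost in 7 alternatives, among them the fits without 0 h replicate 1, 10 h replicate 1 or 1 h replicate 2 (adjusted p range 0.0111 to 0.367).

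The other 13 hairpins were not called without the block. miR-466h-3p held 56.6% and 50.9% of its hairpin's reads at 0 h and 27.4% and 45.0% at 12 h (slope -0.072 ± 0.026 SE, limma adjusted p = 0.0665). Its ratio was called with the replicate block (adjusted p = 0.0461), without 2 h replicate 1 (0.0113) and without 12 h replicate 2 (0.0415), in a range of 0.0113 to 0.294 over the alternatives. Over all classes the arms of miR-669a stood in nearly the same ratio at both ends of the course, with 38.9% and 39.1% on the 3p arm at 0 h and 39.9% and 39.9% at 12 h (slope 0.011 ± 0.019 SE, adjusted p = 0.791), although the replicates were apart in between (44.6% and 29.9% at 4 h). With reads equal to the reference alone, a minority of the reads of both arms, its 3p/5p ratio rose (slope 0.0769, limma adjusted p = 0.0355, the lowest of a range to 0.89). There the 12 h change of miR-669a-3p was 0.20 (edgeR adjusted p = 0.729), beside the -0.80 of miR-669a-5p. miR-669f and miR-466n also had both arms at similar levels (58.9% ± 9.14 and 44.4% ± 6.16 on the 3p arm at 0 h). The 3p arm dominated miR-466a, miR-466b and miR-466d (91.3% to 94.5% at 0 h). miR-466i, from outside the intron, had only 27 5p and 91 3p reads in all. Its 3p arm held 100% and 63.6% of its reads at 0 h and 50% and 80% at 12 h. The 5p arm dominated miR-467a, miR-467c, miR-467e, miR-669b and miR-669e (0.622% to 26.9% on the 3p arm at 0 h). The families thus held hairpins with opposite dominant arms.

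**Figure D4:**
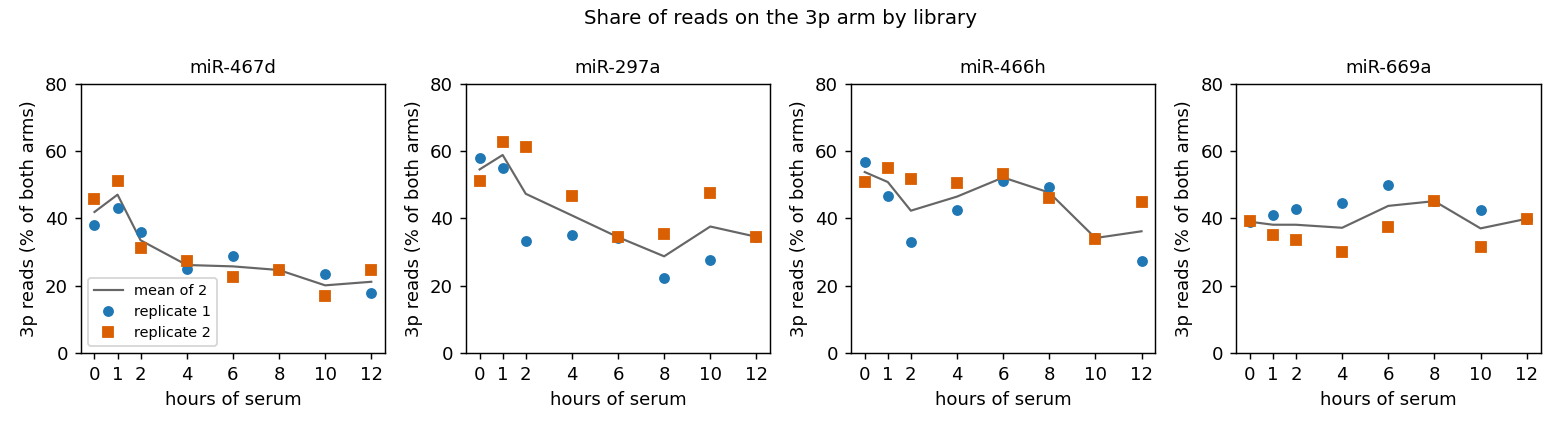
Percent of a hairpin's arm reads on the 3p arm (y axes, 0 to 80%) against hours of serum for 4 hairpins, with 1 point per library and a line through the means of 2. miR-467d goes from 38.1% and 45.7% at 0 h to 17.8% and 24.6% at 12 h, while miR-669a, over all classes, is near 39% to 40% at both times.

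The deposited counts sort reads by their ends. Here the members' pooled reads differed from the pooled reads of all other miRNAs, as a description with no test. Such a pool is weighted by reads, and the fibroblast list alone summed to 333800 to 441500 CPM. The shares of other miRNAs taken singly were not compared, so a trait of the families is not shown. Trimmed reads, which lack bases of the reference, were 38.9% to 46.1% of the members' reads in each library and 24.6% to 26.6% of those of all other miRNAs. Reads equal to the reference were 38.6% to 43.2% against 51.6% to 55.2%. Reads with non-templated bases added at the 3' end, the mark left by terminal transferases, were 3.77% to 5.41% against 10.5% to 11.7%. In members this class stood at 4.09% ± 0.458 at 0 h and 4.70% ± 0.469 at 12 h (SD, n = 2), and in other miRNAs at 10.5% ± 0.0629 and 11.6% ± 0.0336. Of the trimmed reads, miR-669a-5p held 19.1%, miR-467d-5p 17.5%, miR-669a-3p 17.1% and miR-467a-5p 13.4%, together 67.1%. Of all member reads the same 4 held 13.6%, 9.30%, 9.04% and 13.9%.

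The end classes also varied widely among members. miR-467d-5p was 80.5% trimmed and 17.3% reference, whereas miR-467c-5p was 21.9% trimmed and 67.1% reference, and miR-669c-5p was 3.23% trimmed with 25.5% in templated 3' extensions. Both arms of miR-466h were counted mainly as templated 3' extensions (85.9% of miR-466h-5p and 89.5% of miR-466h-3p), so most of their reads ran past the annotated end. Of the reads of miR-297a-3p, 41.1% were templated 5' extensions, against 0.272% to 0.324% per library for all other miRNAs pooled. That share was 37.2% at 0 h and 52.6% at 12 h, the latter from 10 and 9 reads, and its part in the calls of miR-297a-3p was not tested. Trimmed reads of near-identical members can match several of them. The part of read placement in the opposite slopes of miR-467a-5p and miR-467d-5p was not tested beyond the counts of reference reads alone, in which miR-467a-5p was called over the trend and miR-467d-5p was not. The same holds for the 3p/5p ratio of miR-467d, which also fell in reference reads alone. Read counts were 2385 for miR-467d-3p, named for 1 hairpin, and 98 for miR-467a-3p, named for 10. Whether reads counted as miR-467d-3p came from other hairpins was not tested.

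The miRNAs whose mean log2 level over the 8 times was most like the pooled level were miR-669c-5p (Pearson r = 0.987), miR-467d-3p (0.984), miR-574-5p (0.981), miR-503-5p (0.979) and miR-501-5p (0.967), from 449 miRNAs compared and as a description. miR-669c-5p and miR-467d-3p are members and so part of the pooled level, and all share the libraries. miR-574-5p, a UG-repeat miRNA from another locus, stood at 236 and 293.4 CPM at 0 h and 159.8 and 172 at 12 h. It fell over the trend by 0.053 per hour (edgeR adjusted p = 0.00389), and its 12 h change of -0.67 ± 0.22 (SE) was not called (adjusted p = 0.0522). miR-1187, another UG-repeat miRNA, had at most 0.439 CPM. Other tandem mouse clusters were near the detection limit throughout: 14 forms of the X-linked cluster that holds miR-465 and miR-743 summed to 0.14 to 1.73 CPM and 10 forms of the miR-290 to miR-295 cluster to 0.151 to 1.22. None of these was abundant enough to be tested.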

How the data were processed

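Values are whole-number counts of reads as deposited, with 1 entry for each class of read ends of a miRNA and 16 library columns, per the file headers; what each class means was inferred from its name. The submitters' processing notes list CASAVA 1.8.0. For the aligner, miRBase release and build, nothing was given in the sources used here. Of 6511 entries 1 duplicate was dropped. Each read was counted once: entries for added 3' bases repeat the non-templated class (equal in 801 of 801) and were left out.

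All 16 libraries entered 1 edgeR quasi-likelihood fit (edgeR 4.0.16, limma 3.58.1, R 4.3.3) with TMM scaling (0.935 to 1.07), filterByExpr with a minimum count of 10 (449 miRNAs tested, 718 not), no replicate block, and Benjamini-Hochberg adjustment over all 449 at 0.05. SE is the change over the square root of F. CPM used TMM-scaled totals. For arm ratios, limma fitted log2 of 3p over 5p reads, with 0.5 added to each, against hours. Both scripts were tested on simulated data. The reads carry no molecular identifiers, so limits cover counting error only.

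Same-numbered libraries deviated together in 28 of 28 pairs of times (correlations 0.106 to 0.569), so the numbers were taken to pair samples. Unless the block is named, p-values and the other alternatives still come from fits without it. A fit with the number as a block is given beside the counts of calls. The members, lists and rules were chosen with earlier results of these data known. Named are the 12 members with the most reads, every called member, hairpins with at least 20 reads on each arm, the 5 most abundant untested members, and the 5 miRNAs most like the pooled level. The members miR-467b-5p, miR-467e-3p and miR-669f-3p were named after their values were seen. A member or hairpin with too few reads under an alternative was not tested there, so its call was counted neither as kept nor as lost. Alternatives were DESeq2 1.42.0 (size factors and test), unscaled totals, limma-voom, no or a stricter low-count filter (minimum count 50), subsets of classes, the block, each replicate alone, 1 to 12 h alone, 0 h and 12 h alone, and leaving out each library; the reference-only counts and the arm-ratio test were added after the data had been seen.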

Additional observations from a re-analysis of the deposited data

How the results depend on the processing

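Of 33 tested members, 4 were called over all times, 4 at 12 h and 13 over the trend. Of all 449 tested miRNAs these calls numbered 62, 64 and 113, in either direction. With the replicate block 7, 7 and 13 were called, and the block lost none of the calls made without it. For any change, 2 of 32 tested members were called with templated classes, beside 54 of all 421 miRNAs tested there. With reference and trimmed classes 1 of 29 was called, beside 41 of 380. For the trend, 8 of 61 members were called without a low-count filter, beside 91 of all 1167 miRNAs. With reference and trimmed classes 8 of 29 were called, beside 95 of 380. With the reference class (added after the data had been seen) 5 of 21 were called, beside 104 of 333. Of the 33 members of the main fit, 2 were called in replicate 1 alone, beside 87 of all 449 miRNAs. In replicate 2 alone 4 were called, beside 60, and over 1 to 12 h 7 were called, beside 69. Leaving out 1 library left 1 at its time, and never gave more members for any change or at 12 h than the main fit. Members were fewest at 12 h without 12 h replicate 1, and for any change without 0 h or 1 h replicate 2. Calls over all miRNAs also fell, in both comparisons, without 0 h replicate 2 or either 12 h library. For the trend, leaving out each library gave 9 to 14 members, beside 94 to 120 of all 449 miRNAs. The 2 called arm ratios, beside 7.69% of all 169 that fell, were 3 with the replicate block, beside 9.47%. They were 1 in either replicate alone and over 1 to 12 h, and 1 to 3 without single libraries. There were 3 without 2 h replicate 1 or 12 h replicate 2, and 1 without 0 h or 10 h replicate 1 or 1 h replicate 2. Over all hairpins, calls were counted only in the main and blocked fits. With the reference class 2 were called, miR-467d falling and miR-669a rising. The pooled log2 ratio of -0.42 was -0.58 with unscaled totals and moved by less than the replicates' spread under the other alternatives. No called change reversed. Among uncalled 12 h changes, miR-669a-3p was 0.20 with the reference class, miR-467c-5p was 0.020 without 12 h replicate 2 (-0.29 without replicate 1), and miR-669b-5p was 0.22 with reference and trimmed classes, 0.0091 with only 0 h and 12 h in the fit, 0.029 without 0 h replicate 1 and 0.19 without 12 h replicate 2 (-0.24 without 12 h replicate 1). The causes were not tested. Members under about 1 CPM, with few reads per library, allow only large changes to be seen.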
